A study of Mus musculus with 6 samples.

Results

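Interferon-stimulated genes outside the list that the study named in adult Bahd1-KO brains were examined in the embryonic brain. The set held 40 genes, chosen by symbol from the 53801 genes of the count table. RNA-seq of polyadenylated RNA was performed on the whole brain of C57BL/6 mouse embryos at E16.5, 3 Bahd1-KO (Bahd1-/-) and 3 Bahd1-WT (Bahd1+/+), obtained by mating heterozygotes. The deletion was present in every cell of the embryo from the start of development, so that an effect in brain cells and one in other cells cannot be told apart. BAHD1 is a scaffold of repressive chromatin complexes, and the question here was whether its absence alters the resting level of these antiviral genes before birth. All 40 genes passed the minimum of 10 counts summed over the embryos, with all 6 embryos and with Bahd1-KO replicate 3 left out.

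Type I and type III interferons bind receptors at the cell surface and act through the kinases JAK1 and TYK2. Their signal brings STAT2 together with IRF9 in the complex ISGF3. ISGF3 binds the interferon-stimulated response element (ISRE) in the promoters of its target genes, whose products detect and degrade viral RNA, block translation or trap virions. In uninfected tissue these genes are kept at a low tonic level.

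ISRE cores lay close to the start site of many genes of the set. Among 300-base RefSeq windows (250 bases before to 50 after the start site, GRCm38.p6), 30 of the 40 genes had at least 1 window. The core, searched as GAAANNGAAA on both strands, was present in 17 of these 30 genes (56.7%), against 3.99% of all 27025 genes with a window. Stretches of 80 bases from 6 genes show how the core sits. They come from a gene that was higher in the Bahd1-KO embryos (Rsad2) and from a gene that was lower in 1 Bahd1-KO embryo (Oas3). The other genes are classical antiviral genes (Isg15, Ifit1 and Ifit3) and an interferon-inducible GTPase gene (Gbp2). The stretches are written 5′ to 3′ on the strand of the gene, with the core in capitals in either orientation.

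Rsad2, chr12:26456528-26456607, minus strand: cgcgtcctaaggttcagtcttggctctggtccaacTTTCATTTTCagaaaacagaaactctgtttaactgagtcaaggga
Isg15, chr4:156200846-156200925, minus strand: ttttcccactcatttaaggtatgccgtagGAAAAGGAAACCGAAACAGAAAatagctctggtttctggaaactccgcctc
Ifit1, chr19:34640759-34640838, plus strand: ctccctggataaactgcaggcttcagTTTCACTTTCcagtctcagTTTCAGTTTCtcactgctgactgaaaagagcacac
Ifit3, chr19:34583355-34583434, plus strand: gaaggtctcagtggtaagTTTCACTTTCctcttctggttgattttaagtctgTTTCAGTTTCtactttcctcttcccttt
Oas3, chr5:120777690-120777769, minus strand: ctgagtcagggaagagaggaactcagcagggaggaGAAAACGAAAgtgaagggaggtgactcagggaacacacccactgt
Gbp2, chr3:142620569-142620648, plus strand: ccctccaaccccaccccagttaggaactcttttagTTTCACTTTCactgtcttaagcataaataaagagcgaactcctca

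The Rsad2 stretch held 1 core, while the stretches of Ifit1 and Ifit3 held 2 each and that of Isg15 held 3 that overlap. A second motif, the gamma-activated site searched as TTCNNNGAA, was found in 10 of the 30 genes (33.3%), against 9.55% of all genes with a window. A match describes the letters of the window, not binding in these brains.

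The libraries held 61.7 to 91.8 times 1e6 counts. Reads of Bahd1 numbered 2 to 10 in the Bahd1-KO embryos and 1971 to 3470 in the Bahd1-WT embryos. One library stood apart. In Bahd1-KO replicate 3, protein-coding genes took 53.47% of the counts (95% Wilson interval 53.46 to 53.48%, counting error only), against 97.8 to 98.4% in the other 5 embryos. Levels were therefore scaled by TMM (trimmed mean of M-values) and are given as CPM, counts per 1e6 scaled counts, and each comparison is given with and without this embryo. Neuron markers were present in every embryo, with summed levels of 2342 CPM in Bahd1-KO replicate 3 and 6415 to 7226 CPM in the other 5. Single neuron markers differed, since that embryo was the lowest for 5 of the 8 and the highest for 1, Snap25 (910 CPM). Against the Bahd1-WT mean the 5 were Tubb3 (0.0209-fold), Stmn2 (0.0680-fold), Neurod6 (0.0688-fold), Gap43 (0.0724-fold) and Map2 (0.320-fold), and Snap25 was 4.41-fold. Neural progenitor markers summed to 532 CPM in that embryo, against 930 to 1185 CPM in the other 5. It was the lowest for 5 of these 6 markers and the highest for 1, Vim. Markers of other tissues were high in Bahd1-KO replicate 3, and their values stand beside the results they move with.

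The interferon ligands themselves were close to undetected. Of 21 genes for type I, II and III interferons in the table, 19 had no count in any embryo. A count of 0 allows a level of up to 0.0297 to 0.0556 CPM, depending on the library (3 counts). The exceptions were Ifna13, with 1 count in Bahd1-KO replicate 3, and Ifng, with 1 count in Bahd1-KO replicate 1 and 4 in replicate 3. None reached the count minimum, so no test was made.

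The genes of the receptor chains, Stat2, Irf3 and Irf9 were among the 6 highest of the set in Bahd1-WT brains, together with the inducible gene Ifit2. Per kb of exon and per 1e6 counts, the receptor chain gene Ifnar1 was highest at 15.4 ± 1.31 (SD, n = 3 here and below), at the 87.8th percentile of all genes tested. Ifit2 (5.44 ± 1.57), the ISGF3 subunit gene Stat2 (5.16 ± 0.285), the virus-activated factor Irf3 (5.01 ± 1.29) and the second receptor chain gene Ifnar2 (4.04 ± 0.134) followed, and the ranges of neighbours among these 4 genes overlapped. Irf9, the DNA-binding subunit of ISGF3, came next at 2.91 ± 0.426. Among the 40 genes, 10 had a level of at least 1 on this scale, 16 lay between 0.1 and 1, and 14 lay under 0.1. The median was 0.325, against 1.07 over all genes tested. The antiviral enzyme gene Rsad2 ranked 27th at 0.0965 ± 0.00493, and the lowest were Cxcl10 (0.0188 ± 0.00513), Oasl1 (0.0162 ± 0.00687) and Zbp1 (0.0160 ± 0.00379). Of the 39 pairs of neighbours in this order, 30 had overlapping ranges over the 3 Bahd1-WT embryos. For 9 genes the mean count in Bahd1-WT was under 20, so that their values carry a large counting error. In whole brain, fewer expressing cells and less RNA per cell cannot be told apart.

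**Figure D1:**
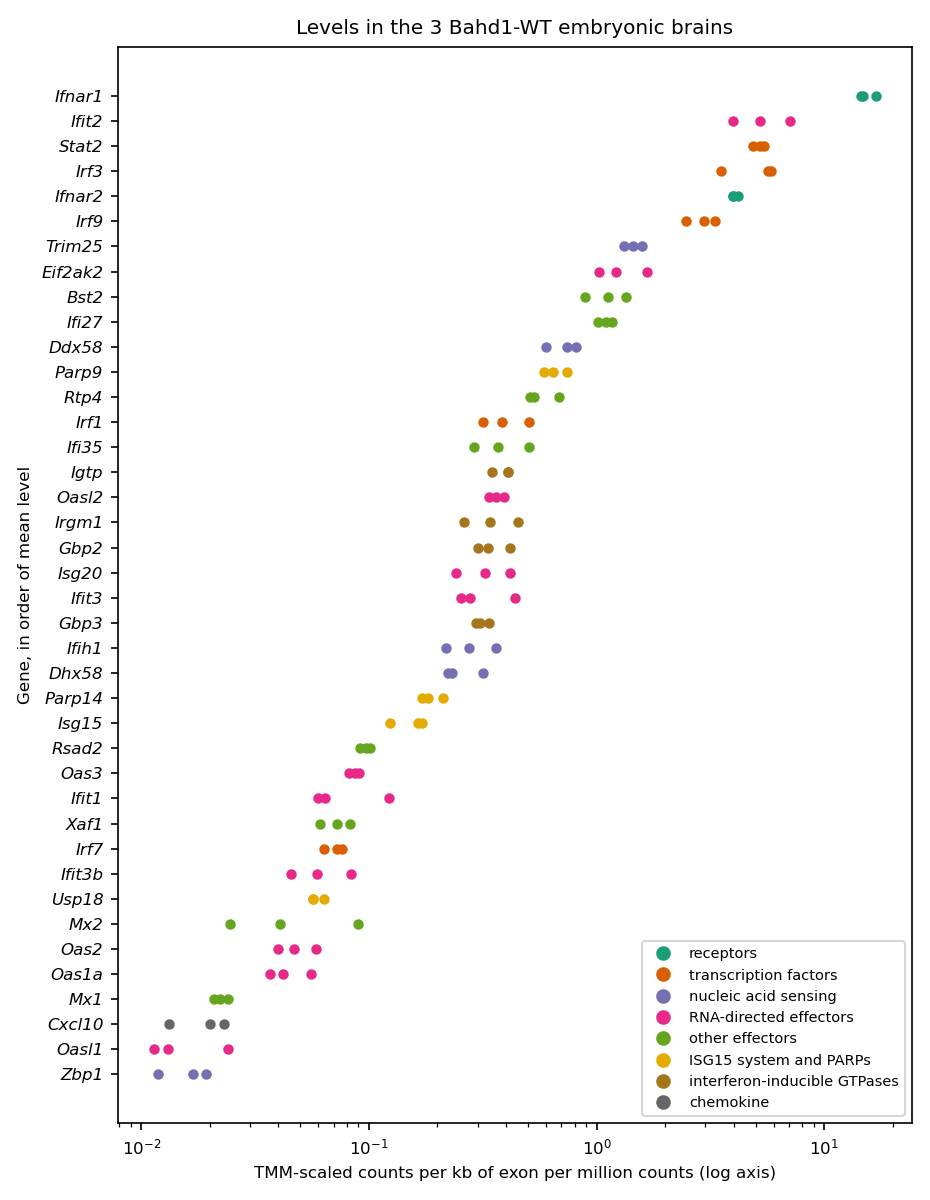
Levels of the 40 genes in the 3 Bahd1-WT embryonic brains, as TMM-scaled counts per kb of exon and per 1e6 counts on a log axis, 1 point per embryo and coloured by role. Ifnar1 lies at 15.4 and the genes fall to 0.0160 for Zbp1, with the receptor chains and Stat2, Irf3 and Irf9 among the 6 highest.

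No gene of the set passed the adjusted threshold of 0.05 (edgeR, quasi-likelihood), either with all 6 embryos (0.00404% of 24739 genes called) or without Bahd1-KO replicate 3 (0.0171% of 23334 genes). At an unadjusted p under 0.05 there were 3 genes with 6 embryos, Rsad2, Isg20 and Usp18, all higher in Bahd1-KO, where 4.67% of all genes tested reached this limit and 4.51% did so with Bahd1-KO higher. With replicate 3 of Bahd1-KO left out there were 2, Rsad2 and Isg20, again higher, against 1.48% of all genes and 1.09% in that direction. DESeq2 called none of the set with 6 embryos (0.0334% of its genes) and gave no adjusted p for Irf1. At an unadjusted p under 0.05 it had 9 of the 40 genes, against 1266 of all 24739 genes. Without Bahd1-KO replicate 3 it had 2 at this limit, against 169 of 23334 genes. With 5 embryos it called 1, Rsad2 (0.0471% of its genes). The adjusted p of the 40 genes in edgeR ranged from 0.696 to 0.959 with 6 embryos and from 0.981 to 0.997 with 5. A p above the threshold does not show that the genotypes were alike.

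The direction of the set rested on Bahd1-KO replicate 3. With 6 embryos, 33 of the 40 genes had a positive log2 fold change, Bahd1-KO over Bahd1-WT (53.8% of all genes), and the median was 0.96, against 0.060 over all genes. With 5 embryos, 23 were positive (49.2% of all genes) and the median was 0.044, against -0.0079. Taken embryo by embryo, the median log2 level against the Bahd1-WT mean came to 0.11 for Bahd1-KO replicate 1, 0.00092 for replicate 2 and 1.80 for replicate 3, and to between -0.065 and 0.066 for the Bahd1-WT embryos. Bahd1-KO replicate 3 was the highest of the 6 embryos for 33 of the genes (38.1% of all genes) and at least 2-fold above the Bahd1-WT mean for 29 (28.7%). It was the lowest for 4 of them, Ifnar1, Stat2, Oas3 and Oas1a (36.0% of all genes). The mean of Bahd1-KO replicates 1 and 2 was within 1.5-fold of the Bahd1-WT mean for 37 of the genes (81.0% of all genes), and the exceptions were Rsad2, Isg20 and Oasl1. It was at least 2-fold above it for Rsad2 and Isg20 alone (4.86%).

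**Figure D2:**
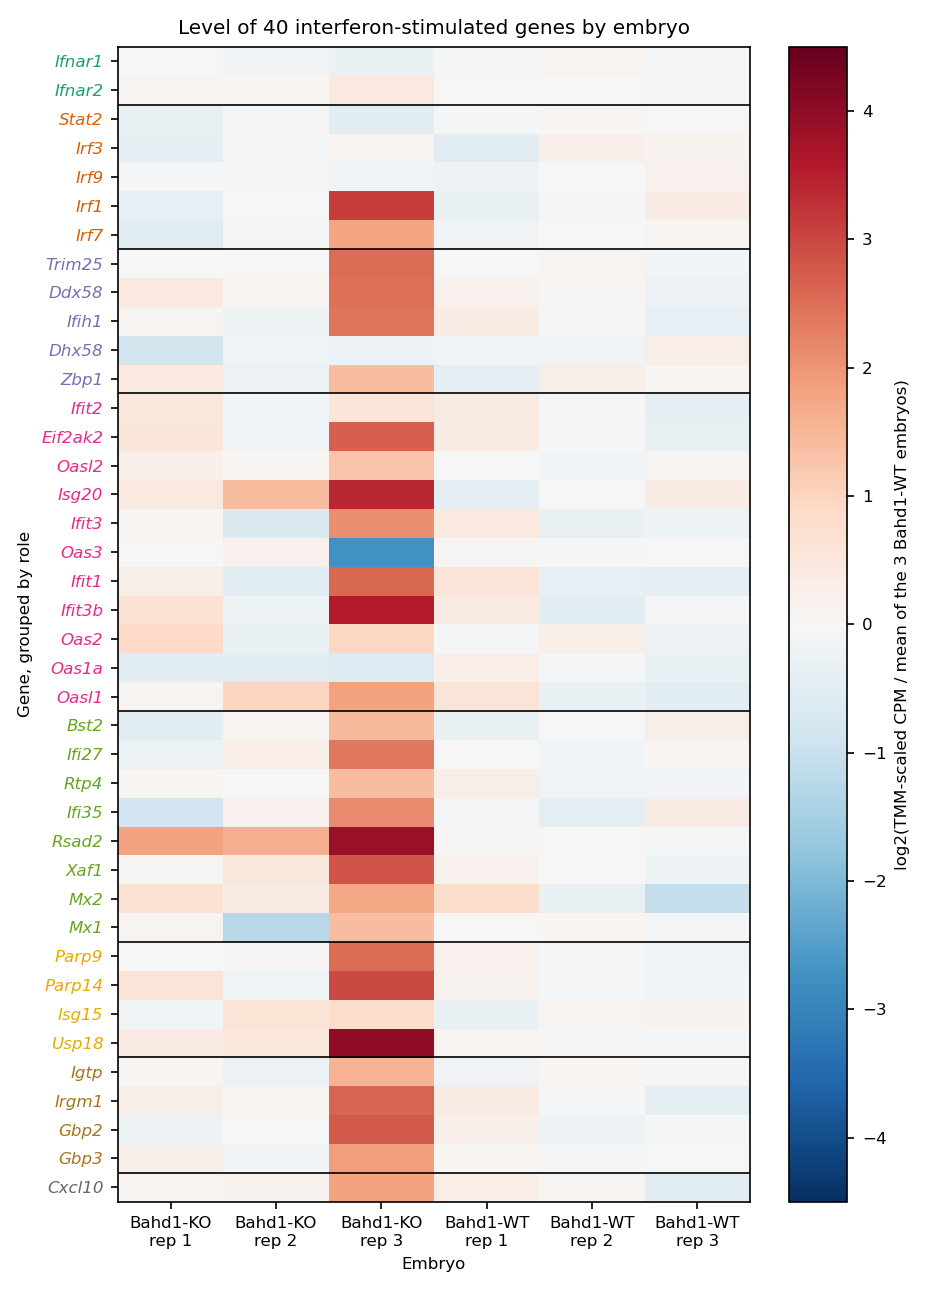
Level of each of the 40 genes in each embryo as the log2 ratio of TMM-scaled CPM to the mean of the 3 Bahd1-WT embryos, with genes grouped by role (red higher, blue lower). The column of Bahd1-KO replicate 3 is red for most genes (median 1.80), while Bahd1-KO replicates 1 and 2 (medians 0.11 and 0.00092) have medians near 0, with Rsad2, Isg20 and Oasl1 as the genes whose mean over these 2 embryos lies more than 1.5-fold from Bahd1-WT.

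Summed markers of several other cell types and tissues were high in the same embryo, and other sums were low. The summed level of 7 lung markers was 1474 CPM in Bahd1-KO replicate 3, against 0.672 and 12.7 CPM in Bahd1-KO replicates 1 and 2 and 0.836 to 2.23 CPM in Bahd1-WT. The surfactant gene Sftpc alone was at 828 CPM in Bahd1-KO replicate 3. Connective tissue and meningeal markers (7 genes) together stood at 2781 CPM, against 414 to 494 CPM in the other 5 embryos. Endothelial markers (7 genes) summed to 722 CPM against 217 to 280 CPM, and markers of border macrophages and monocytes (8 genes) to 176 CPM against 36.1 to 55.7 CPM. Lyve1 alone made up 113 CPM of the latter sum. Pf4, Cd163 and Ms4a7 lay within the range of the other embryos, and Mrc1 was at 36.2 CPM, against 36.1 CPM in Bahd1-KO replicate 1. Neutrophil markers (7 genes) stood at 19.8 CPM, against 1.39 to 4.47 CPM. Microglia markers (10 genes) summed to 117 CPM, against 78.7 to 97.4 CPM, and lymphocyte markers (8 genes) to 2.21 CPM, against 0.366 to 0.465 CPM. Skeletal muscle markers (6 genes) stood at 50.9 CPM, against 1.80 to 8.52 CPM, and skin markers (6 genes) at 28.6 CPM, against 12.8 to 13.4 CPM. The sums of the liver and choroid plexus lists, which share the gene Ttr, were at 0.144-fold and 0.326-fold of the Bahd1-WT mean in this embryo. Their single markers were mixed. This embryo was the highest for 2 of 7 liver and 3 of 6 choroid plexus markers, and the lowest for 1 and 3. Bahd1-KO replicate 3 was the highest embryo for 6 of 6 muscle, 3 of 6 skin, 7 of 7 lung, 7 of 7 connective tissue, 6 of 7 endothelial, 5 of 8 macrophage, 6 of 7 neutrophil, 6 of 10 microglia and 5 of 8 lymphocyte markers, and no marker of these lists was at 0 in it. In Bahd1-KO replicate 2, 6 placental markers summed to 11.2 CPM, against at most 0.136 CPM in any other embryo. The part of these cells in the level of the interferon-stimulated genes was not tested.

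**Figure D3:**
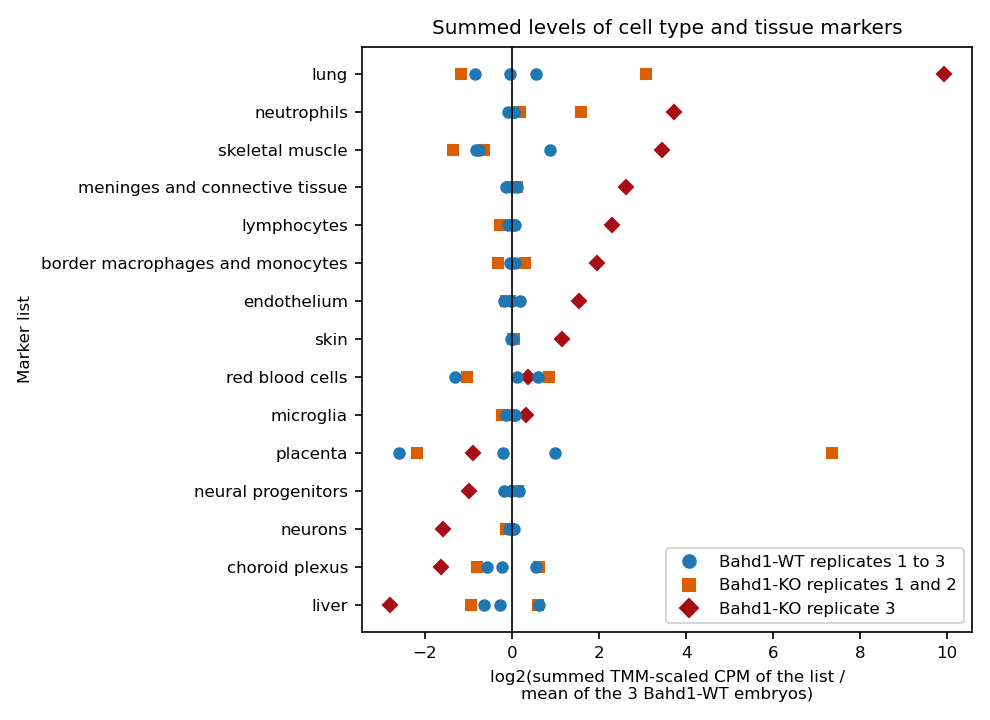
Summed TMM-scaled CPM of 15 marker lists in each embryo, as the log2 ratio to the mean of the 3 Bahd1-WT embryos. Bahd1-KO replicate 3 lies farthest to the right for lung (1474 CPM) and is also high for connective tissue and macrophage markers, and it lies to the left for neurons (2342 CPM) and neural progenitors.

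Both receptor chain genes, Stat2, Irf3 and Irf9 had log2 fold changes between -0.29 and 0.21 with 6 embryos, while those of Irf1 and Irf7 were 1.80 (SE 0.938) and 0.73 (SE 0.694). The Bahd1-KO embryos gave 6052, 6827 and 3965 reads of Ifnar1 (chromosome 16, 91485238 to 91507441, plus strand), in the order of replicates 1 to 3 kept from here on, and the Bahd1-WT embryos gave 8405, 8824 and 8657. Its level was 92.4, 80.8 and 73.5 CPM in Bahd1-KO, against 87.8, 100.1 and 85.7 CPM in Bahd1-WT, and the genotypes overlapped. The log2 fold change was -0.15 (SE 0.218) with 6 embryos and -0.089 (SE 0.190) with 5. Ifnar2, which lies within the same 135 kb of chromosome 16, had levels of 14.5, 14.2 and 18.1 CPM in Bahd1-KO and 13.2, 13.2 and 13.9 CPM in Bahd1-WT. Each Bahd1-KO embryo was above each Bahd1-WT embryo, by a mean of 1.16-fold, but under scaling by total counts or by DESeq2 size factors the groups overlapped. The Ifnar2 log2 fold change was 0.21 (SE 0.255) with 6 embryos and 0.080 (SE 0.219) with 5.

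Stat2 was at 24.3, 29.0 and 21.9 CPM in Bahd1-KO and at 28.8, 32.2 and 30.8 CPM in Bahd1-WT. Bahd1-KO replicate 2 lay just above the lowest Bahd1-WT embryo, and the groups did not overlap under DESeq2 size factors or upper-quartile scaling, with Bahd1-KO lower. The Stat2 log2 fold change was -0.29 (SE 0.235) with 6 embryos and -0.21 (SE 0.216) with 5. Irf9 overlapped completely, at 15.3, 16.2 and 14.2 CPM in Bahd1-KO and 13.3, 15.9 and 17.9 CPM in Bahd1-WT (log2 fold change -0.043, SE 0.257), and 123 bases of its exons are shared with Rnf31 on the same strand. Irf1, a factor induced by interferon-gamma, had the highest ratio to the Bahd1-WT mean of the 5 factors in a single embryo (8.67-fold), at 13.8 CPM in Bahd1-KO replicate 3, against 1.24 and 1.58 CPM in replicates 1 and 2 and 1.26 to 2.0 CPM in Bahd1-WT. Without that embryo its log2 fold change was -0.19 (SE 0.319). The 5 transcription factor genes all had negative log2 fold changes with 5 embryos (median -0.21), although that of Irf9 was -0.0069 and turned to 0.079 under upper-quartile scaling.

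Sensors of viral nucleic acid followed the pattern of the set. Trim25, a ubiquitin ligase that activates RIG-I, was the sensing gene with the highest level per exon length in Bahd1-WT (1.45 ± 0.133). It was at 8.30, 8.28 and 47.9 CPM in Bahd1-KO and 7.61 to 9.14 CPM in Bahd1-WT. Ddx58, which encodes the RNA sensor RIG-I, was at 6.85, 5.34 and 27.9 CPM in Bahd1-KO and 4.21 to 5.71 CPM in Bahd1-WT, with Bahd1-KO replicate 2 inside the Bahd1-WT range. Dhx58, which encodes the related helicase LGP2, did not share the high value, at 0.473, 0.746 and 0.704 CPM in Bahd1-KO and 0.731, 0.760 and 1.04 CPM in Bahd1-WT. For Dhx58 the log2 fold change was -0.39 (SE 0.430) with 6 embryos and -0.47 (SE 0.357) with 5. The 5 sensing genes had a median log2 fold change of 1.27 with 6 embryos and -0.026 with 5.

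**Figure D4:**
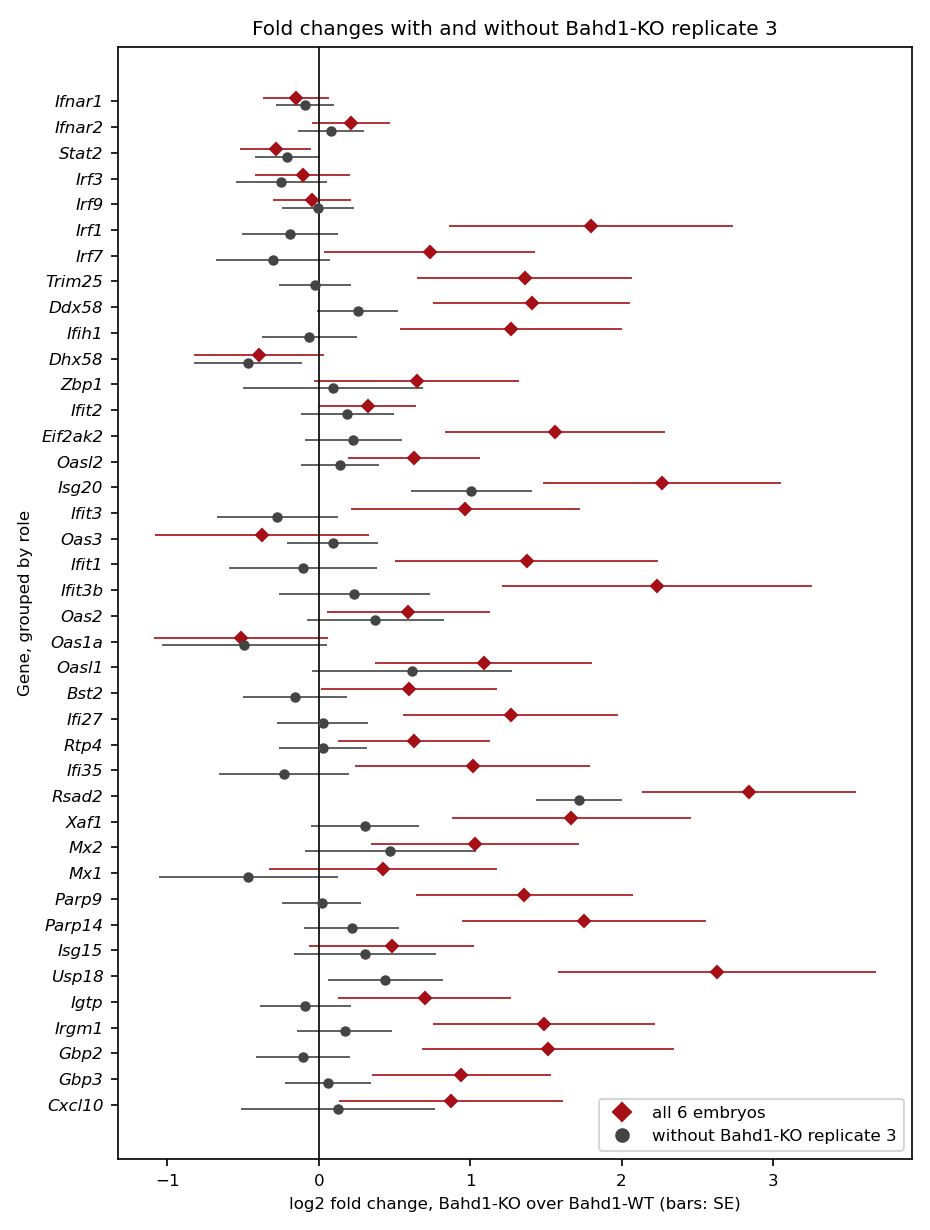
Log2 fold changes, Bahd1-KO over Bahd1-WT, from edgeR with all 6 embryos (diamonds) and without Bahd1-KO replicate 3 (circles), with bars of 1 SE. Most circles lie near 0 (median 0.044), and the circle of Rsad2 lies farthest to the right at 1.72.

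Among the 11 effectors that act on RNA, the ratio of Bahd1-KO replicate 3 to the Bahd1-WT mean ranged from 0.152-fold to 11.96-fold, and that of the mean of replicates 1 and 2 from 0.713-fold to 2.01-fold. Isg20 encodes an exonuclease that degrades viral RNA (ENSMUSG00000039236, chromosome 7, 78913424 to 78920396, plus strand). The Bahd1-KO embryos gave 54, 137 and 343 reads of it, the Bahd1-WT embryos 43, 53 and 78. The levels of 0.824, 1.62 and 6.36 CPM in Bahd1-KO all lay above the 0.449, 0.601 and 0.772 CPM of Bahd1-WT, although the margin of Bahd1-KO replicate 1 was small. The log2 fold change was 2.27 (SE 0.788, unadjusted p 0.023, adjusted p 0.696 in edgeR), and without Bahd1-KO replicate 3 it was 1.01 (SE 0.400, unadjusted p 0.0367, adjusted p 0.981 in edgeR). No ISRE core was found in the 3 windows of Isg20.

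The 4 Ifit genes, whose products bind viral RNA, lie within 99.3 kb of chromosome 19 (34550694 to 34650009). Ifit2 was at 29.6, 19.8 and 30.9 CPM in Bahd1-KO and 27.9, 20.5 and 15.7 CPM in Bahd1-WT, so that Bahd1-KO replicate 3 was 1.45-fold the Bahd1-WT mean. Its neighbours, singled out after their values were seen, departed further in that embryo. Ifit3 was at 2.37 CPM there, 4.21-fold the Bahd1-WT mean, Ifit1 at 1.30 CPM, 5.97-fold, and Ifit3b at 1.5 CPM, 11.96-fold. The mean of Bahd1-KO replicates 1 and 2 lay within 1.5-fold of the Bahd1-WT mean for all 4 genes, at 0.844-fold (Ifit3) to 1.21-fold (Ifit3b). Ifit3 and Ifit3b are close copies, and the split of reads between them is uncertain.

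Oas genes, which encode synthetases of the 2′-5′ oligoadenylate that activates RNase L, did not share a pattern. Oas3, chosen after its values were seen, had 5 counts in Bahd1-KO replicate 3, against 40 to 62 in the other embryos. Its level there was 0.0927 CPM, 0.152-fold the Bahd1-WT mean, and it was the only gene of the 40 at most 0.5-fold in that embryo (25.4% of all genes tested). The 5 other embryos agreed closely, from 0.578 to 0.699 CPM. Oas2 and Oas1a lie beside it, the 3 genes spanning 177 kb of chromosome 5 (120730333 to 120907521). Oas2 was at 0.408 CPM in Bahd1-KO replicate 3, close to the 0.397 CPM of replicate 1. Oas1a had 3 to 5 counts in each Bahd1-KO embryo and 7 to 10 in each Bahd1-WT embryo. It was the only gene of the set with all 3 Bahd1-KO embryos below all Bahd1-WT embryos (2.24% of all genes), and the groups overlapped under upper-quartile scaling. Its log2 fold change was -0.51 (SE 0.575), and near-identical Oas1 copies make its counts uncertain.

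Rsad2 had the largest log2 fold change of the set, with 6 embryos and with 5. It encodes viperin, an enzyme that makes a chain-terminating ribonucleotide (ENSMUSG00000020641, chromosome 12, 26442746 to 26456452, minus strand). The Bahd1-KO embryos gave 97, 110 and 337 reads, and the Bahd1-WT embryos 42, 37 and 40. The level was thus 1.48, 1.30 and 6.25 CPM in Bahd1-KO, against 0.439, 0.420 and 0.396 CPM in Bahd1-WT. The Bahd1-WT embryos lay close together, and every Bahd1-KO embryo was above all of them under each of 4 scalings. The mean was 3.01 ± 2.80 CPM in Bahd1-KO and 0.418 ± 0.0214 CPM in Bahd1-WT (SD, n = 3 each), a 7.20-fold difference. Without Bahd1-KO replicate 3 the Bahd1-KO mean was 1.39 ± 0.126 CPM (n = 2), a 3.33-fold difference.

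The log2 fold change of Rsad2 was 2.84 (SE 0.709, unadjusted p 0.00485, adjusted p 0.696 in edgeR) with 6 embryos. Without Bahd1-KO replicate 3 it was 1.72 (SE 0.284, unadjusted p 0.000342, adjusted p 0.981 in edgeR). DESeq2 gave an adjusted p of 0.109 with 6 embryos and 0.00353 with 5. With 5 embryos the call depended on the tool and on the filter, since edgeR without the count minimum gave an adjusted p of 0.0334.

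Genes next to Rsad2 gave other values. Cmpk2, a mitochondrial nucleotide kinase gene and itself interferon-stimulated, lies 12.8 kb away on the opposite strand. Bahd1-KO embryos gave 1427, 2054 and 728 reads of it and Bahd1-WT embryos 2242, 1776 and 1782. Its level was 21.8, 24.3 and 13.5 CPM in Bahd1-KO, against 23.4, 20.1 and 17.6 CPM in Bahd1-WT, the groups overlapping and Bahd1-KO replicate 3 being the lowest. The log2 fold change of Cmpk2 was -0.038 (SE 0.307) with 6 embryos and 0.16 (SE 0.233) with 5, beside 2.84 and 1.72 for Rsad2. Rnf144a, a ubiquitin ligase gene 27.5 kb away on the other side, had a log2 fold change of 0.098 (SE 0.183) with 5 embryos. Rsad2, Cmpk2 and Rnf144a were the 3 genes tested of 14 within 500 kb on either side.

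**Figure D5:**
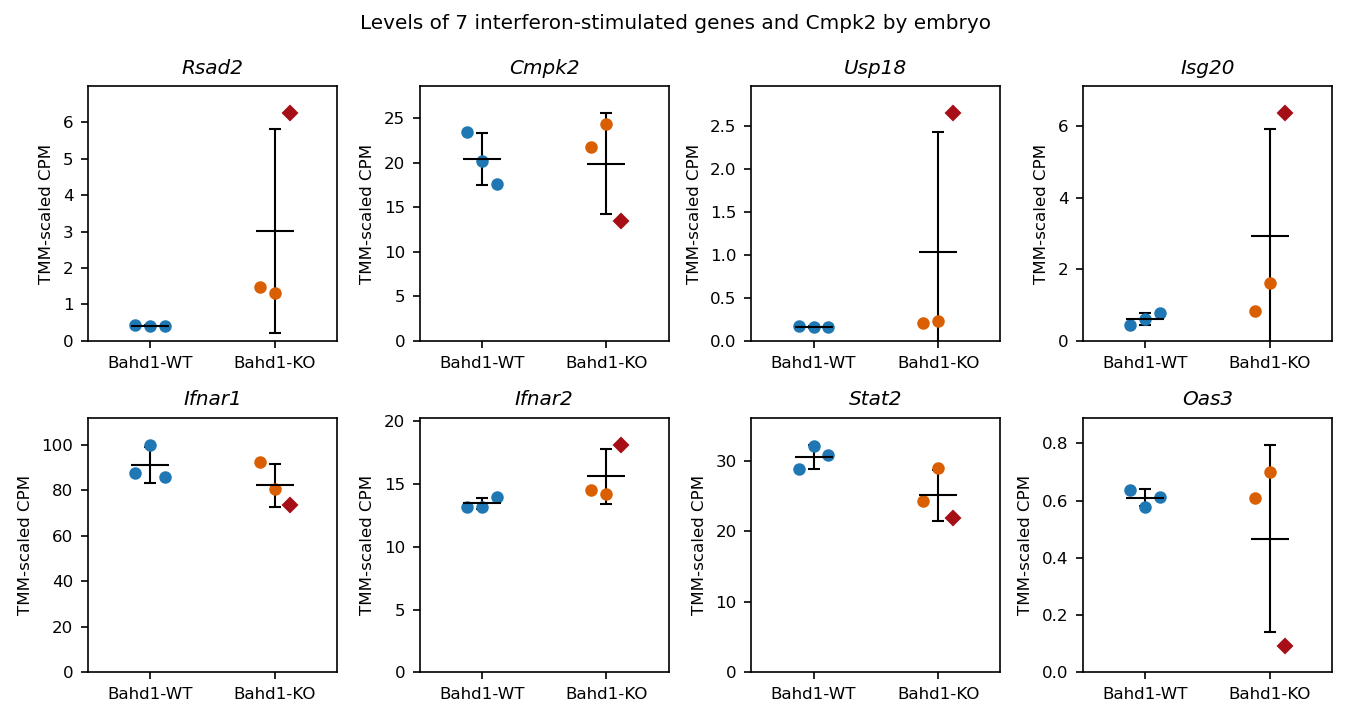
TMM-scaled CPM of 7 of the genes and of Cmpk2 in each embryo (circles, and a diamond for Bahd1-KO replicate 3), with the mean as a bar and the SD as whiskers, cut at 0. Rsad2 is higher in all 3 Bahd1-KO embryos (1.48, 1.30 and 6.25 CPM) than in Bahd1-WT (0.396 to 0.439 CPM), Cmpk2 overlaps, and Oas3 is low in Bahd1-KO replicate 3 (0.0927 CPM).

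Among the other effectors, the group that also holds Rsad2, Bst2 encodes tetherin, which holds budding virions at the cell surface. It was at 0.717, 1.10 and 2.78 CPM in Bahd1-KO and 0.804 to 1.22 CPM in Bahd1-WT. For Bst2 the log2 fold change went from 0.60 (SE 0.580) to -0.15 (SE 0.344) without that embryo. The 8 genes of this group, Rsad2 included, had a median of 1.03 with 6 embryos and 0.027 with 5, where the mean of Bahd1-KO replicates 1 and 2 ranged from 0.752-fold to 3.33-fold (Rsad2) of Bahd1-WT. Mx1 and Mx2 belong to the family of dynamin-like antiviral GTPases, and Mx2 is annotated as a polymorphic pseudogene. Both had 3 to 34 counts in every embryo, too few to show a difference of modest size.

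The ISG15 system attaches the ubiquitin-like protein ISG15 to other proteins. Usp18, whose product removes ISG15 and dampens the interferon receptor (ENSMUSG00000030107, chromosome 6, 121245906 to 121270917, plus strand), was read 14, 20 and 143 times in Bahd1-KO embryos, whereas Bahd1-WT embryos gave 17, 14 and 16 reads. The levels of 0.214, 0.237 and 2.65 CPM in Bahd1-KO all lay above the 0.158 to 0.178 CPM of Bahd1-WT. The margin of Bahd1-KO replicate 1 was small and rested on 14 reads, no more than in Bahd1-WT replicate 2. Bahd1-KO replicate 3 was 16.1-fold the Bahd1-WT mean, the highest such ratio of the set, and replicates 1 and 2 were 1.37-fold. The log2 fold change was 2.63 (SE 1.05, unadjusted p 0.0399, adjusted p 0.696 in edgeR) with 6 embryos and 0.44 (SE 0.379) with 5. Parp9, a macrodomain protein gene, was at 3.24, 3.30 and 18.1 CPM in Bahd1-KO and 2.85 to 3.62 CPM in Bahd1-WT, and 458 bases of its exons overlap Dtx3l on the opposite strand. Isg15 itself, singled out after its values were seen, had only 7 to 15 counts in each embryo.

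Rsad2, Isg20, Usp18 and Ifnar2 were the 4 genes with all 3 Bahd1-KO embryos above all Bahd1-WT embryos on the TMM scale (4.47% of all genes tested). The same 4 were separated with 5 embryos, but this had to be so, because leaving out a Bahd1-KO embryo cannot undo a separation. It is therefore no further evidence for these genes. No other gene of the set joined them with 5 embryos. Of all genes tested with 5 embryos, 6.33% were separated in this direction and 4.35% in the other.

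Interferon-inducible GTPases, which act on vacuoles that hold microbes, were high in Bahd1-KO replicate 3 and near the Bahd1-WT level in the other Bahd1-KO embryos. Irgm1 was at 2.46, 2.19 and 12.5 CPM in Bahd1-KO and 1.53 to 2.62 CPM in Bahd1-WT. Igtp was at 0.839, 0.651 and 2.34 CPM in Bahd1-KO and 0.700 to 0.828 CPM in Bahd1-WT, and 162 bases of its exons are shared with Irgm2 on the same strand. The 4 genes had a median log2 fold change of 1.21 with 6 embryos and -0.015 with 5. The chemokine gene Cxcl10, whose product recruits T cells, had 3 to 8 counts in every embryo, and its log2 fold change was 0.87 (SE 0.740) with 6 embryos and 0.13 (SE 0.642) with 5.

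Genes with and without an ISRE core had similar median differences. With 5 embryos the median log2 fold change was 0.059 in the 17 genes with a core, -0.0069 in the 13 with a window and no core, and 0.061 in the 10 with no window in the table. With 6 embryos these medians were 0.97, 0.73 and 0.84. Rsad2 held the highest value of the genes with a core (1.72) and Isg20 that of the genes without (1.01), both with 5 embryos, and no test was made on these groups.

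Of 18 signalling genes tested (receptors, kinases, further signalling genes and inhibitors), none passed the adjusted threshold in edgeR or DESeq2, with medians of the log2 fold change of 0.42 over 6 embryos and -0.014 over 5. A single gene of this list reached an unadjusted p under 0.05 in edgeR, in both comparisons. This was Ifnlr1, the receptor chain gene specific to type III interferon, chosen after its values were seen. The Bahd1-KO embryos gave 88, 156 and 365 reads of Ifnlr1, the Bahd1-WT embryos 69, 63 and 70. The log2 fold change of Ifnlr1 was 2.22 (SE 0.673) with 6 embryos and 1.16 (SE 0.293, adjusted p 0.981 in edgeR) with 5, and each Bahd1-KO embryo was above each Bahd1-WT embryo. Of 17 genes of the pathway that induces interferons, none passed in edgeR (none at an unadjusted p under 0.05) or DESeq2, with medians of 0.43 and -0.18. Of 48 further interferon-stimulated genes tested with 6 embryos and 45 with 5, Cmpk2 among them, none passed in edgeR (2 and 0 at an unadjusted p under 0.05) or DESeq2, with medians of 0.82 and 0.036, and Bahd1-KO replicate 3 was the highest embryo for 42 of the 54 genes in the table.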

How the data were processed

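The deposited table gives each gene's raw count in each embryo, from TruSeq stranded libraries whose reads the authors counted by strand over Ensembl genes (GRCm38). The submitters' processing notes name cutadapt 1.11, STAR 2.5.0a and featureCounts 1.4.6-p3, and the supplementary methods also name TopHat2 as aligner. Groups came from the sample titles.

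Genes whose counts summed to 10 or more were tested with edgeR 4.0.16 (quasi-likelihood, TMM, genotype as the single term, two-sided, R 4.3.3). The p-values were adjusted by Benjamini-Hochberg over all genes tested, with a threshold of 0.05. The scripts were tested on simulated data. Levels per kb used the union exon length of GENCODE M21. The labels name separate embryos and do not give litters, so p-values measure the spread between these embryos. DESeq2 1.42.0, limma 3.58.1 (voom), other scalings and filters, a replicate block, protein-coding genes alone (added after seeing the data) and each embryo left out in turn were alternatives.

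Members and lists were chosen with earlier results of these data known. Named were members past the threshold in edgeR or DESeq2, the highest level and smallest p per role, members whose genotypes did not overlap, members under the count minimum, pathway genes past the threshold, and Ifnar1, Ifnar2, Stat2, Irf9 and Cmpk2. Opposite-strand neighbours are kept apart by strand, while same-strand overlaps and close paralogs can share reads.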

Additional observations from a re-analysis of the deposited data

How the results depend on the processing

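Over all genes with 6 embryos, DESeq2 called 8 genes and voom with embryo quality weights 6, against 1 in edgeR, and leaving out 1 embryo gave 0 to 4. Without Bahd1-KO replicate 3, against 4 in edgeR, DESeq2 called 11, no filter on low counts 44, and protein-coding genes alone 1. Called members went from 0 to 1 (Rsad2) under DESeq2 and under no filter, both without Bahd1-KO replicate 3, and stayed at 0 in every other alternative run. The members' median with 6 embryos (0.96) was 0.18 under voom and 0.044 to 1.20 with 1 embryo left out, the lowest without Bahd1-KO replicate 3. This median also moved with the scaling, to 0.57 under total counts and 1.10 under upper-quartile factors. With 5 embryos the members' median (0.044) was 0.13 under upper-quartile factors. The median over all genes with 6 embryos was 0.060 under TMM, 0.17 under upper-quartile factors and -0.11 under total counts, so that small differences move with the scaling. Members with fewer than 20 counts in Bahd1-WT allow large differences to go undetected.

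Same-numbered embryos were not treated as pairs in the main fits. Their deviations correlated at r = 0.26, 0.34 and -0.12, and those of differently numbered embryos at -0.50 to 0.38. These values cannot settle whether embryos were paired, because each deviation was taken from a group mean, which for Bahd1-KO includes replicate 3. With a replicate block, 0 genes were called with 6 embryos and 16 with 5, none a member, and the members' medians were 0.61 and 0.0053.

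Signs turned for some named genes, none past the threshold, and the causes were not tested. Among them, Bst2 (0.60), Igtp (0.70), Trim25 (1.36) and Irf1 (1.80) were well above 0 with 6 embryos. With 6 embryos, voom gave log2 fold changes of -0.18 for Bst2, 0.17 for Cmpk2, -0.014 for Igtp and -0.060 for Irf1. Upper-quartile factors gave 0.049 for Cmpk2 and 0.071 for Irf9, total counts -0.00090 for Ifnar2, and filterByExpr 0.00097 for Irf9. With 1 embryo left out, the range was -0.15 to 0.94 for Bst2, -0.090 to 0.98 for Igtp, -0.19 to 2.27 for Irf1 and -0.026 to 1.75 for Trim25, the lowest of each without Bahd1-KO replicate 3. It was -0.24 to 0.16 for Cmpk2, positive without Bahd1-KO replicate 3 or Bahd1-WT replicate 1 (0.040), and -0.19 to 0.050 for Irf9, positive without Bahd1-WT replicate 3. With 5 embryos, the block gave -0.075 for Cxcl10, -0.0010 for Ifit2, 0.097 for Irf9 and -0.056 for Parp9. Upper-quartile factors gave 5.8e-05 for Ifnar1, 0.0048 for Igtp, 0.079 for Irf9 and 0.055 for Trim25. Irf9 was 0.0031 under filterByExpr, 0.031 with protein-coding genes alone and 0.0097 under total counts, and Trim25 was 0.011 with protein-coding genes alone.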
